A study of Mus musculus with 2 samples.

Results

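The genes described here are 39 mouse genes of DNA replication and its licensing, chosen by name as a list of the complexes that mark, load, start and copy from replication origins. They were 39 of 21938 protein-coding genes, and all 39 symbols matched the annotation. Their chromatin was read from ATAC-seq of regulatory T cells, the CD4 T cells that carry Foxp3 and restrain immune responses, in 2 libraries. In ATAC-seq a transposase cuts open DNA and tags the cuts for sequencing, and each library had its own list of accessible regions on the mm10 build. The single group was regulatory T cells of strain C57BL/6NJ, described as primary cells. Its labels link a CD4 T cell differentiation protocol, which was not read, and the entry names give 72 hours. No genotype change or treatment is given, age is given as unknown and sex as not collected. Replicates 1 and 2 carry one donor identifier, so they may come from one animal and their spread may be technical. The entry names contain ASTARR and insert, and no source used here explains these words, so the exact kind of library behind the lists was not established.

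Replication is licensed before S phase, when the origin recognition complex, Cdc6 and Cdt1 load the MCM2-7 helicase onto DNA and geminin later blocks a repeat. Cdc45 and the GINS complex then switch the helicase on, polymerase alpha with primase lays primers, and the sliding clamp, its loader, RPA, Fen1 and DNA ligase I carry the copying and joining. Many of these genes are known targets of E2F factors, which the retinoblastoma family holds in check in resting cells, and T cells switch them on when they leave quiescence. An open promoter is not a measure of transcription, so nothing below states how strongly a gene was expressed.

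The lists held 68903 regions in replicate 1 and 78262 in replicate 2. The number of reads behind them is unknown. All 7 regulatory T cell markers and all 7 pan T cell markers had an open promoter in both replicates. The same held for 2 of 6 myeloid, 3 of 5 erythroid and 0 of 5 hepatocyte markers, and for 64.4% of all protein-coding genes. The erythroid share thus lay near that of genes at large. Of genes known from B cells, Cd79b, Ebf1 and Pax5 had an open promoter in both replicates, and Cd79a and Ms4a1 had none. In a bulk library, fewer cells with an open site and less opening per cell cannot be told apart.

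The promoters of Pola1, Mcm6, Cdt1, Rpa1 and Tk1 are printed to show the letters on which the sequence results below turn. Pola1 and Mcm6 held the most E2F letters, Cdt1 is 1 of 6 genes tied after them, Rpa1 had the highest rank of -log10 q among the genes with an entry, and Tk1 the lowest. All of them were thus chosen after their values were seen. Each run covers 220 bases before the start site and 30 from it on, in the direction of transcription, from RefSeq promoters on GRCm38.p6. The places are chrX:93632126-93632375 on the minus strand for Pola1 (catalytic subunit of polymerase alpha), chr1:128359676-128359925 on the minus strand for Mcm6 (a helicase subunit), and chr8:122567795-122568044 on the plus strand for Cdt1 (the MCM loader). Rpa1, the large subunit of the single-strand binding complex, lies at chr11:75348354-75348603 on the minus strand, and Tk1, thymidine kinase of the cytosol, at chr11:117825985-117826234 on the minus strand. Capitals mark E2F letters, that is TTGGCGC, with TTCCCGC, with TTGCCGC and with TTCGCGC as its variants, on either strand, and overlapping matches form one run of capitals.
Pola1: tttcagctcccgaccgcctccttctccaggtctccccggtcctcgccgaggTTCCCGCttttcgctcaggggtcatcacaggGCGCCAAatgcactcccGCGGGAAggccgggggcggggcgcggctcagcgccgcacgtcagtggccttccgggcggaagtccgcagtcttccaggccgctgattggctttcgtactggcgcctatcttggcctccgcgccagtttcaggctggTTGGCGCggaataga
Mcm6: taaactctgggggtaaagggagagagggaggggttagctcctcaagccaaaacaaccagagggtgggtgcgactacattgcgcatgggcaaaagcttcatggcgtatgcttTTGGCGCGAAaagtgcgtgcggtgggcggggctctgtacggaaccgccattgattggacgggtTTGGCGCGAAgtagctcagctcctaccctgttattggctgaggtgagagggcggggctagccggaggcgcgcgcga
Cdt1: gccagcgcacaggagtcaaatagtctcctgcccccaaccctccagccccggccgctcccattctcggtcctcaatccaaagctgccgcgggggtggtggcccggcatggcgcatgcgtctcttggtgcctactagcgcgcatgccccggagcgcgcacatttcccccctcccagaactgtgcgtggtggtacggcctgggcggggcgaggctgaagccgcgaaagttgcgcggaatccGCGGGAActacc
Rpa1: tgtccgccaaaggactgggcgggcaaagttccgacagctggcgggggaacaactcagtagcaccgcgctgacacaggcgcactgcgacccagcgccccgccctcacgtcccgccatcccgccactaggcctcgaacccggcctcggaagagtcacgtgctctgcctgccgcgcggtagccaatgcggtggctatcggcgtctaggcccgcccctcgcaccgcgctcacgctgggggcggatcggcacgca
Tk1: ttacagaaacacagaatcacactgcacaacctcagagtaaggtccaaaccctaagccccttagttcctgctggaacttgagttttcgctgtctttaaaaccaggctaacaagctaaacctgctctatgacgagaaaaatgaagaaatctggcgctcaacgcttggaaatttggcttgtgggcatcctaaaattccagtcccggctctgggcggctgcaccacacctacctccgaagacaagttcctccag
Pola1 showed 4 matches, Mcm6 showed 4 in 2 overlapping pairs, and Cdt1 showed 1. Mcm6 held a further match that runs over the printed end and is left in lower case, and Cdt1 held one past the end. The printed bases of Rpa1 and Tk1 held none of these letters.

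All 39 genes had an accessible region within 1 kb of one of their start sites in both replicates, against 64.4% of all protein-coding genes. Taken alone, replicate 1 and replicate 2 each gave 39 of 39, against 64.8% and 65.8% of all genes. The 39 therefore differed from each other not in whether the promoter was open but in how strong the region was. The 40 other replication genes, the 20 E2F and RB regulators and the 21 mitotic genes on the comparison lists were likewise open in every case. In these libraries an open promoter was thus common to all 4 lists.

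Strength was taken from the region with the highest -log10 q at each promoter, where q is the authors' adjusted p-value for that region and the signal is their height measure of unstated scale. For the 39 genes the median -log10 q was 195.7 and 291.1 in replicates 1 and 2, against 122.1 and 178.8 for the 14121 promoters open in both replicates. The median signal was 14.3 in each replicate for the 39, against 11.4 in each for all open promoters. Replication genes as a list thus stood above the middle of open promoters by both measures, and so did the mitotic list. Its median -log10 q was 200.3 and 304.0 and its median signal 14.4 and 15.01. The other replication genes had 176.3 and 257.0 in -log10 q and 12.4 and 12.2 in signal. The E2F and RB regulators had 163.1 and 246.9 in -log10 q. Their median signal was 11.2 and 11.6, below that of open promoters in replicate 1. Of the 39, 27 in replicate 1 and 28 in replicate 2 were above the median -log10 q, which 50% of open promoters pass by construction. In the upper 25% of open promoters stood 19 and 18 of the 39 by -log10 q, and 21 and 20 by signal. In both replicates together, 6 of the 39 were in the upper 10% by -log10 q, against 8.89% of open promoters, and 10 were not above the median, against 47.5%. Tk1 was the only one of the 39 in the lowest 25% in both replicates, where 23.5% of open promoters stood.

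**Figure D1:**
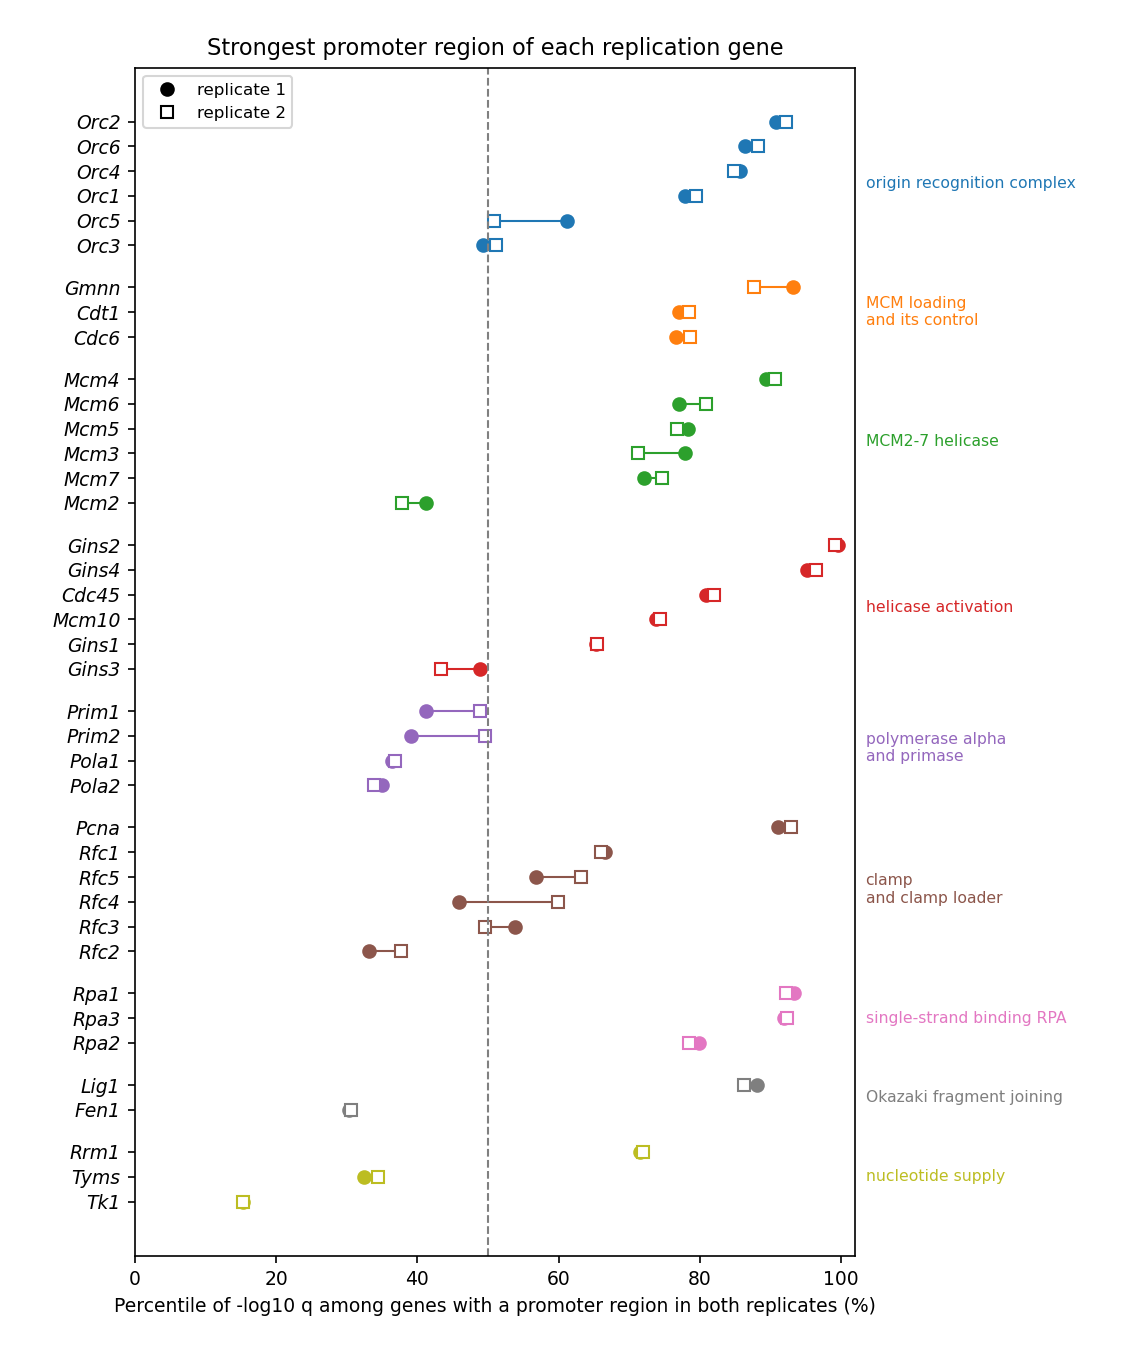
The plot gives, for each of the 39 genes, the percentile of -log10 q of its strongest promoter region among the 14121 genes with a promoter region in both replicates, as a filled circle for replicate 1 and an open square for replicate 2, with the dashed line at the median. Gins2 stands at the far right and Tk1 at the far left, and the 4 genes of polymerase alpha and primase lie left of the line in both replicates.

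The 2 measures ranked the genes differently. The rank correlation of -log10 q with signal over the 39 genes was 0.55 and 0.49 in replicates 1 and 2, against 0.70 and 0.69 over all open promoters. These are descriptions across genes of one library, and both values come from the same reads. Between the replicates, the rank correlation over the 39 genes was 0.93 for signal and 0.98 for -log10 q, against 0.97 and 0.99 over all open promoters. The level of -log10 q was higher in replicate 2 for 39 of 39 genes, with a median ratio of 1.49, and for 13671 of 14121 open promoters, so it is used only to rank within a library. The signal showed no such shift, with a median ratio of replicate 2 to replicate 1 of 1.01 for the 39 genes.

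**Figure D2:**
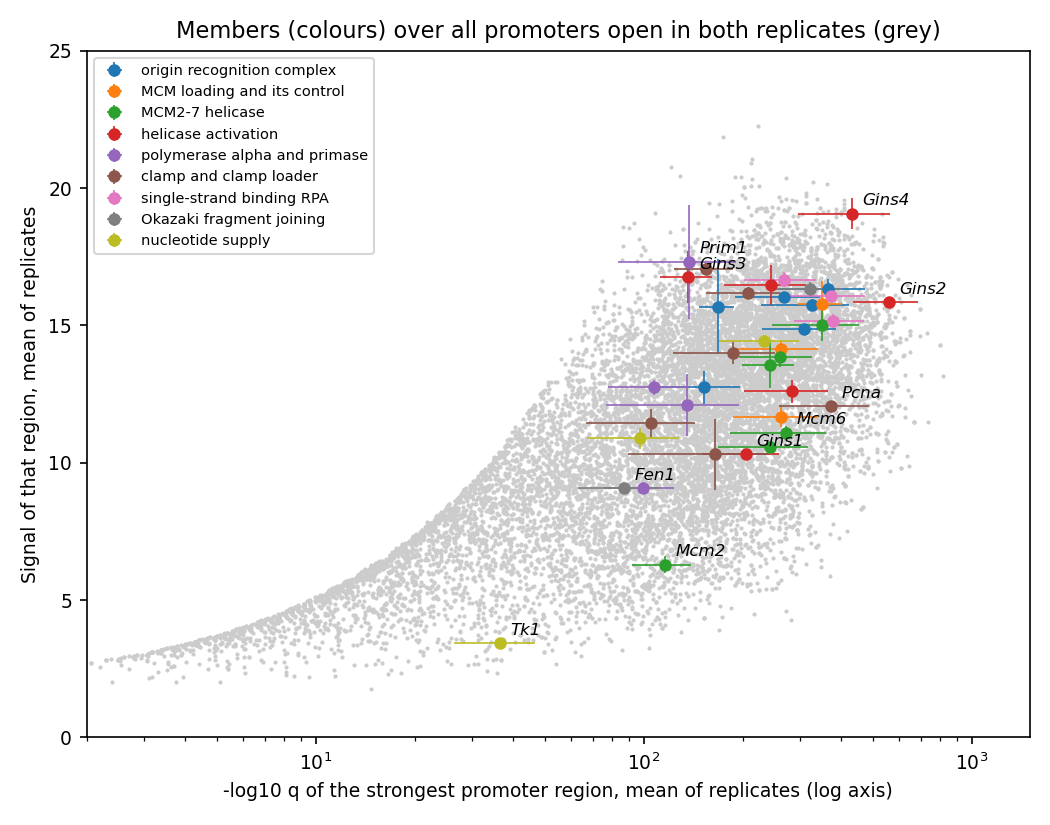
The plot sets the signal of each strongest promoter region against its -log10 q (log axis), both as the mean of the replicates, with the 39 genes coloured by role over all open promoters in grey and bars for 1 SD (n = 2). Prim1 and Gins3 have high signal at a middling -log10 q, Pcna and Mcm6 a middling signal at a high -log10 q, and Tk1 is low in both.

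The origin recognition complex, which marks the sites where replication can start, was open at all 6 subunits, with signals from 12.3 to 16.9. Orc2 ranked highest, with signals of 16.1 and 16.6 and -log10 q of 287.8 and 440.1 in replicates 1 and 2, at percentiles of 90.8 and 92.2 among open promoters. Its region lay at chr1:58504170-58505398 in replicate 1, over the start site. Orc3 ranked lowest, with signals of 12.3 and 13.2 and -log10 q of 120.4 and 183.4, at percentiles of 49.3 and 51.1. Even the lowest of the 6 was thus at the middle of open promoters. Orc1, the subunit whose level changes through the cell cycle in human cells, had signals of 15.9 and 16.2, and Orc6 of 15.6 and 15.9. Orc5 was the subunit on which the replicates differed most, with signals of 16.9 and 14.5 and percentiles of -log10 q of 61.2 and 50.9.

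The 3 genes that load MCM or limit its loading were all in the upper 25% of open promoters by -log10 q in both replicates. Gmnn encodes geminin, the inhibitor of Cdt1, and ranked highest of the 3 with signals of 16.4 and 15.2 and -log10 q of 311.2 and 386.7. Cdc6, an ATPase that joins the origin complex, had signals of 14.4 and 13.9 and -log10 q of 206.5 and 316.7. Cdt1 had signals of 11.96 and 11.40 and -log10 q of 208.7 and 315.8. The inhibitor and both loaders were therefore open together, and Cdc6 and Cdt1 lay close in percentile of -log10 q, at 76.6 and 78.7 for Cdc6 and 77.1 and 78.5 for Cdt1. By signal the 3 spread out, with Cdt1 at percentiles of 54.99 and 50.03 and Gmnn at 92.7 and 84.2.

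Of the 6 subunits of the MCM2-7 helicase, 5 stood above the median -log10 q in both replicates and Mcm2 did not. Mcm4 ranked highest, with signals of 14.6 and 15.4 and -log10 q of 275.6 and 421.6. Mcm2 ranked lowest, with signals of 6.50 and 6.08 and -log10 q of 99.03 and 132.3, and its region was the narrowest of the 39 genes at 615 and 723 bp. The Mcm2 region lay at chr6:88898392-88899006 in replicate 1, with its summit 22 and 10 bp after a start site. Signals of the other 5 subunits ran from 10.5 to 15.4, so Mcm2 did not overlap them. The subunits of one hexamer thus did not share one promoter strength. Mcm6 and Mcm7 also lay below the median signal of open promoters, at 10.9 and 11.3 for Mcm6 and 10.5 and 10.6 for Mcm7, although both passed the median -log10 q.

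Among the 6 genes of helicase activation stood the strongest promoter of all 39. Gins2, a subunit of the GINS complex, had -log10 q of 469.9 and 649.5, at percentiles of 99.6 and 99.2, with signals of 15.9 and 15.8. The region lay at chr8:120588627-120589730 in replicate 1, with the summit 40 bp after a start site in both replicates. Gins4 had the highest signal of the 39 genes, 18.7 and 19.5, with -log10 q of 334.3 and 524.5. Gins3 came last of the 6 by -log10 q, with 119.2 and 154.1, although its signals of 17.4 and 16.1 were at percentiles of 97.2 and 90.4. The 4 GINS subunits, which act in equal numbers in one complex, thus spanned percentiles of -log10 q from 43.4 to 99.6. Cdc45, the helicase cofactor, had signals of 12.3 and 12.9 and -log10 q of 225.9 and 341.1, and Mcm10, which helps to start the forks, had 16.0 and 17.0 and 195.7 and 291.1.

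Gins1 was the exception in position. Its strongest region, with signals of 10.4 and 10.3, had its summit at -694 and -696 bp from the nearest Gins1 start and also covered the start site of Abhd12, a lipase gene read the other way. A second Gins1 region lay at chr2:150909440-150910239 in replicate 1, at an internal start site, with signals of 7.53 and 6.28 and -log10 q of 91.0 and 115.7. No other of the 39 genes had its summit more than 250 bp from a start site in both replicates. In replicate 1 the Prim2 summit was at -417 bp from a start, and at -71 bp in replicate 2.

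The 4 genes of polymerase alpha and primase, the enzyme that lays the primers, were the only role in which no gene passed the median -log10 q in either replicate. Prim1, the catalytic primase subunit, ranked highest of them with -log10 q of 99.04 and 174.8. Pola2, the regulatory subunit of the polymerase, ranked lowest with 82.5 and 116.6 and signals of 9.02 and 9.14. The order depended on the measure, since Prim1 had signals of 15.9 and 18.8, at percentiles of 89.6 and 99.2, and the primase partner Prim2 had 11.3 and 12.9. Pola1 had signals of 12.9 and 12.6, above the median of 11.4, and -log10 q of 86.5 and 128.4. By signal, therefore, Pola1 and Prim1 passed the median in both replicates, Prim2 in replicate 2, and Pola2 in neither.

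Pcna, the sliding clamp, stood above its loader by -log10 q. It had -log10 q of 290.8 and 451.5, at percentiles of 91.0 and 92.9, with signals of 12.2 and 11.9. The 5 subunits of the clamp loader replication factor C ranged from 33.2 to 66.6 in percentile of -log10 q, with Rfc1 highest and Rfc2 lowest, so Pcna did not overlap them. Rfc2 had signals of 11.1 and 11.8 and -log10 q of 77.8 and 131.8. By signal the order turned, with Rfc3 at 17.2 and 16.9 and Rfc1 at 16.3 and 16.0 above Pcna. Rfc4 changed most between the replicates, with signals of 9.39 and 11.2 and -log10 q of 111.5 and 217.6.

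All 3 genes of RPA, the complex that coats single-stranded DNA, were in the upper 25% of open promoters by -log10 q in both replicates. Rpa1 had signals of 15.34 and 15.01 and -log10 q of 313.9 and 440.8, Rpa3 had signals of 16.0 and 16.2 and -log10 q of 299.2 and 442.9, and Rpa2 ranked last of the 3 with 16.9 and 16.5 and 220.9 and 315.3. Their signals ran from 15.01 to 16.85, so the 3 subunits lay close together by this measure. By -log10 q Rpa2 stood apart, at percentiles of 79.9 and 78.5, against 93.4 and 92.2 for Rpa1 and 92.0 and 92.4 for Rpa3. The 2 genes that finish Okazaki fragments lay apart. Lig1, DNA ligase I, had signals of 16.2 and 16.5 and -log10 q of 264.8 and 375.4, whereas Fen1, the flap nuclease, had 8.98 and 9.18 and 69.8 and 103.8. Lig1 had a further region at an internal start site, chr7:13302310-13303508 in replicate 1, with signals of 13.88 and 14.96, nearly as strong as the first.

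The 3 genes of nucleotide supply differed widely from each other. Rrm1, the large subunit of ribonucleotide reductase, ranked highest with signals of 14.3 and 14.6 and -log10 q of 188.0 and 277.6. Tyms, thymidylate synthase, had signals of 10.6 and 11.2 and -log10 q of 75.8 and 118.8 over a wide region of 1706 and 2047 bp. Tk1, which salvages thymidine, was lowest of the 39 by both measures, with signals of 3.46 and 3.40 and -log10 q of 29.3 and 43.5. Its region at chr11:117824407-117826180 in replicate 1 was 1774 bp wide, against a median of 1229 bp for the 39 genes. Stronger regions stood near Tk1, among them one whose summit lay at -2271 bp from its first start in both replicates, with signals of 5.28 and 5.39 and -log10 q of 105.0 and 167.6.

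The summits sat close to the start sites. In replicates 1 and 2, 37 and 38 of the 39 genes had the summit within 250 bp of a start site, against 80% of open promoters in each. The summit lay before the nearest start in 29 and 31 of the 39, against 60.9% and 60.4%. The replicates placed it within 50 bp of each other at 34 of the 39 genes, against 71.1% of open promoters, with a median gap of 5 bp for the 39 and 9 bp for all open promoters. Widths were ordinary, with medians of 1229 and 1276 bp for the 39 and 1205 and 1273 bp for all open promoters. In each replicate 10 of the 39 genes had more than 1 promoter region, against 22.6% and 25.1% of open promoters.

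A head-to-head start, where a neighbour is read the other way from within 1 kb, was found at 13 of the 39 genes for a protein-coding neighbour. This compares with 11% of all protein-coding genes and 16.3% of those open in both replicates. The pairs were Orc1 with Prpf38a, Orc3 with Rars2, Orc4 with Mbd5, Orc6 with Vps35, Mcm4 with Prkdc, Mcm7 with Ap4m1, Cdc45 with Ufd1, Gins1 with Abhd12, Rpa1 with Smyd4, Rpa3 with Gm45062 and Umad1, Fen1 with Tmem258, Lig1 with Zswim9 and Tk1 with Afmid. Start sites were 13 bp apart for Orc3 and 659 bp apart for Gins1, with 105 bp the median. In all 13 pairs the strongest region also overlapped the 1 kb flanks of a partner start, which starts this close make likely by definition. The strength of that region cannot be assigned to one gene of the pair. At 7 more genes the only head-to-head neighbour was a noncoding gene, which makes 20 of 39, against 18.3% of all protein-coding genes and 26.0% of those open in both replicates.

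By role, of the 6 genes of the origin recognition complex 4 were head to head with a coding gene, and none of the 3 loading genes, the 4 genes of polymerase alpha and primase or the 6 of the clamp and its loader were. Prkdc, the partner of Mcm4, encodes the catalytic subunit of the DNA-dependent protein kinase of DNA repair. The 13 paired genes had a median -log10 q of 225.9 and 341.1, and the other 26 had 179.1 and 259.5. Over all genes the same split gave 185.5 and 269.8 for paired and 110.4 and 161.2 for other open promoters. Paired promoters ranked higher in general, and the 26 unpaired replication genes still stood above unpaired promoters as a whole. Of the 40 other replication genes 13 were paired with a coding gene, as were 1 of 20 E2F and RB regulators and 3 of 21 mitotic genes.

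Away from promoters the replication genes lay close to genes of like length. Regions found in both replicates within the gene body or its 10 kb flanks, and at no promoter of a coding gene, numbered 61 over the 39 loci, a mean of 1.56 per gene. All protein-coding genes had a mean of 1.84, and genes of the same class of locus length as the 39 had 1.57. At least 1 such region was found at 24 of the 39, against 58.2% of all genes, and 19 of the 39 had more than the mean of their length class, against 38.3%. The other 15 had none, namely Orc2, Cdt1, Gmnn, Mcm2, Mcm4, Mcm7, Cdc45, Gins3, Gins4, Mcm10, Prim1, Rfc3, Rfc5, Rpa3 and Tyms. Gins4 and Mcm4, both with strong promoters, were thus among the genes with no such region in both replicates, although Gins4 had 1 in replicate 1 alone.

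**Figure D3:**
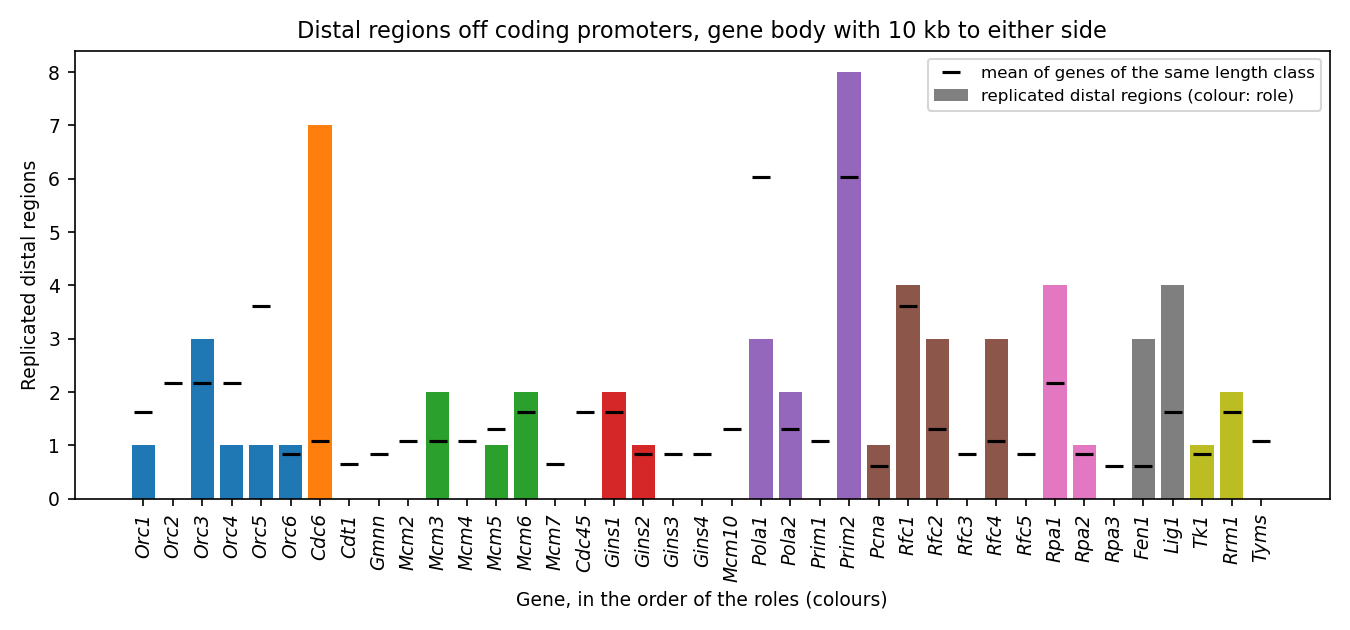
Bars give the number of distal regions found in both replicates at each of the 39 genes, in the gene body and its 10 kb flanks and off coding promoters, coloured by role, and black dashes the mean of all protein-coding genes of the same length class. Cdc6 stands above its dash by the most, with 7 regions, and Pola1 below it by the most, with 3.

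Cdc6 had 7 distal regions, against a mean of 1.09 in its length class. The count rested on weak and flanking regions, since it was 2 among the 50000 strongest entries by signal, 3 among those by -log10 q, 3 in the gene body alone and 15 with 50 kb flanks. The strongest lay before the gene at chr11:98900066-98901128 in replicate 1, with its summit at -7081 and -7034 bp from the start. It had signals of 11.99 and 13.45, close to the 14.4 and 13.9 of the Cdc6 promoter, and -log10 q of 73.2 and 124.9. The other 6 were weak, with signals from 2.59 to 6.64, and lay in introns, in an exon and after the gene. Prim2 had the most, 8 regions, in a locus of 216.0 kb whose length class has a mean of 6.03. Its strongest was intronic, at chr1:33611824-33612848 in replicate 1, with signals of 11.3 and 11.7.

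Rfc1, Rpa1 and Lig1 had 4 distal regions each, against means of 3.62, 2.17 and 1.62 in their length classes. At Rfc1 the strongest was intronic with signals of 10.8 and 13.2, at Lig1 intronic with 10.2 and 11.4, and at Rpa1 after the gene with 13.0 and 14.4. Orc3, Pola1, Rfc2, Rfc4 and Fen1 tied at 3, of which Pola1 has a locus of 327.4 kb and a class mean of 6.03, and Fen1 a locus of 5.04 kb and a class mean of 0.61. Of the 61 regions in replicate 1, 27 were in introns, 7 in exons, 10 before and 17 after a gene. Distal regions were weaker than promoters, with a median signal of 5.38 and 6.34 in replicates 1 and 2. All regions found in both replicates off coding promoters had 6.24 and 6.51. Median -log10 q was 14.5 and 22.7 for the 61, against 19.1 and 28.7. The count moved with the setting: it was 34 in the gene body alone and 36 among the 50000 strongest entries of each list by signal.

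**Figure D4:**
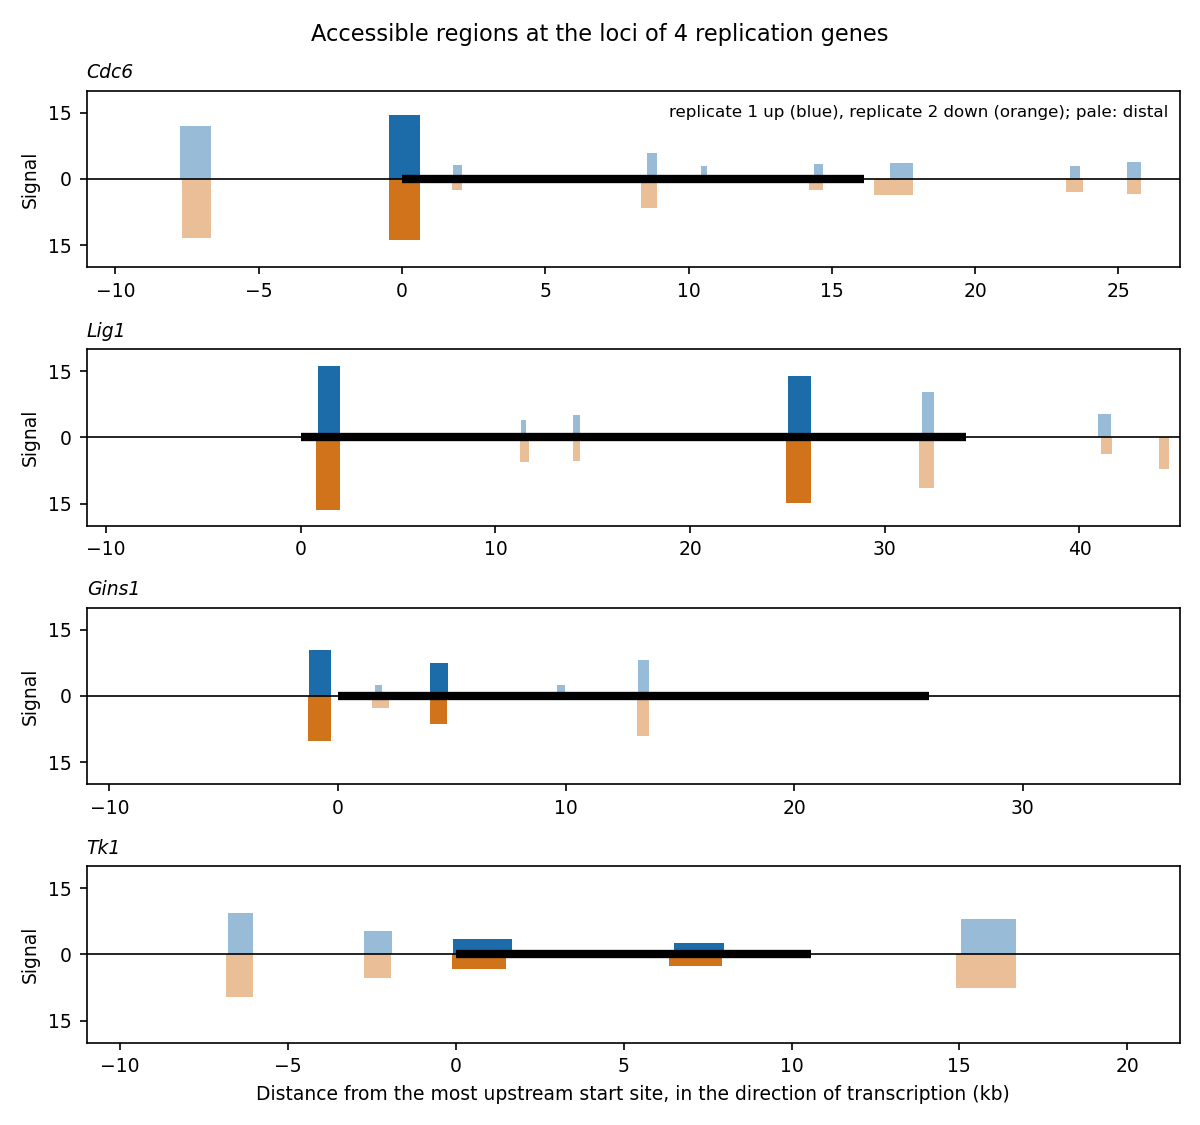
Each panel draws the accessible regions at one gene by distance from its most upstream start site (kb), with height for the signal, replicate 1 upward in blue and replicate 2 downward in orange, promoter regions dark, distal regions pale and the gene as a black bar. Cdc6 shows the region 7 kb before its start, Lig1 and Gins1 their second promoter region, and Tk1 low promoter regions between stronger neighbours.

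RefSeq promoters of 300 bases, 250 before and 50 after the start, were on hand for 32 of the 39 genes. Gins1, Gins2, Gins4, Gmnn, Mcm4, Prim2 and Rfc2 had no entry. The RefSeq start lay within 250 bp of the summit in replicate 1 at 30 of the 32, against 72.3% of open promoters. The windows of the 2 sets were thus not placed alike. The exceptions were Cdc6, at 410 bp, and Cdc45, at 259 bp. The E2F letters were present in 20 of the 32, or 62.5% (exact binomial 95% interval 43.7 to 78.9%, counting error only). They were present in 17.2% of the 10930 promoters open in both replicates with an entry, and in 12.7% of the 16505 promoters of protein-coding genes with an entry. In open promoters of the same GC class the share was 16.3%. At least 2 separate matches were found in 8 of the 32, against 2.24% of open promoters. With a further T in front of the letters, 12 of the 32 held them, against 4.1% of open promoters. Over the full 300 bases, Pola1 had 4 separate matches and Mcm6 3, and Cdt1, Lig1, Mcm3, Mcm5, Mcm7 and Rfc3 had 2 each.

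By role, E2F letters stood in 4 of the 5 MCM2-7 genes with an entry, with Mcm2 lacking them, and in both Cdc6 and Cdt1. They stood in 3 of 6 origin complex genes, namely Orc1, Orc3 and Orc4, in Pola1 and Prim1 but not Pola2, and in Rfc1, Rfc3 and Rfc4 but not Pcna or Rfc5. Rpa2 and Rpa3 held them and Rpa1 did not. Fen1 and Lig1 both held them, as did Gins3 and Rrm1, while Cdc45, Mcm10, Tk1 and Tyms did not. No match says only that these letters are not in this window. Of the 37 matches, overlapping ones included, 26 began between 100 bases before and 50 after the start, against 54.1% of matches in open promoters. The median was at -29, against -88.5. In the 100 bases before the start alone, 11 of the 37 began, against 35.9%. The higher share thus lay past the start.

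**Figure D5:**
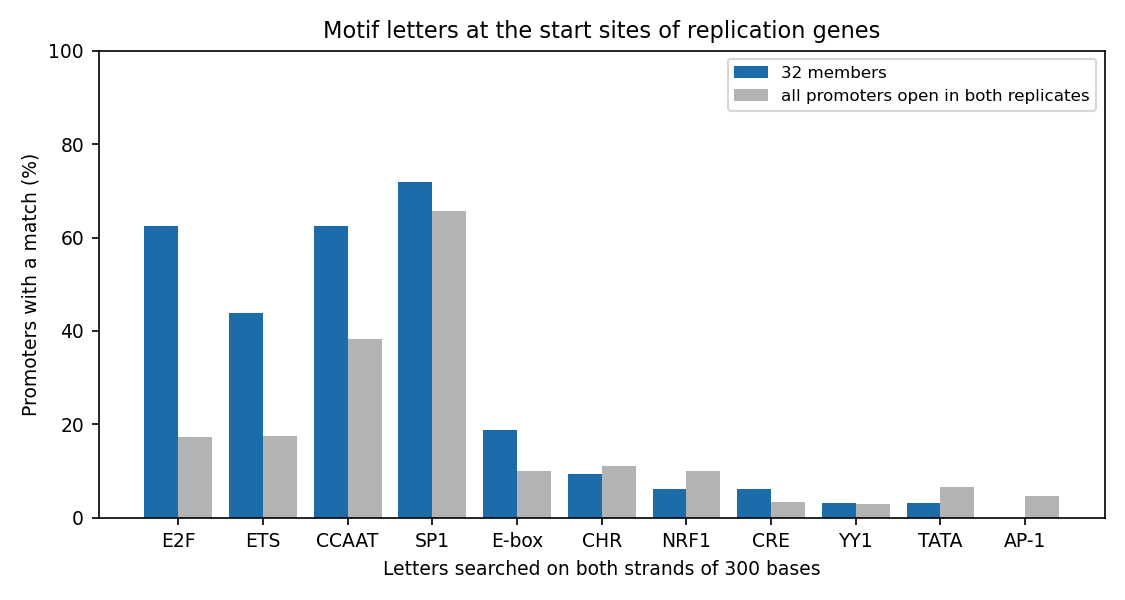
Bars give the share of promoters (%) with each set of letters on either strand of 300 bases, in blue for the 32 replication genes and in grey for all 10930 open promoters with an entry. The blue bar is over the grey one by the most for E2F, at 62.5% and 17.2%. It is below the grey one for CHR (TTTGAA alone), NRF1, TATA and AP-1.

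The box CCAAT, read by the factor NF-Y, stood in 20 of the 32, against 38.3% of open promoters, and the ETS letters CCGGAAG in 14, against 17.5%. CCAAT was in 5 of 5 MCM2-7 genes, 3 of 3 RPA genes and 3 of 3 genes of helicase activation with an entry, and in neither Cdc6, Cdt1, Fen1 nor Lig1. The SP1 letters GGGCGG were in 23, near the 65.8% of open promoters, and the E-box CACGTG in 6, against 10.1%. The letters TTTGAA of the CHR element, known from promoters of mitotic genes, were in 3 of the 32, against 11.1%. Its other form, TTCGAA, was in 2, against 2.14%. Rarer letters were found in few of the 32. The NRF1 motif was in 2, against 10.1%, and the CRE letters TGACGTCA in 2, against 3.29%. The YY1 letters AAGATGGCG were in 1, against 3.06%, and TATAAA was in 1, against 6.52%. The AP-1 letters TGANTCA were in 0, against 4.68%. Matches of different sets could overlap. The GC content had a median of 58.8% in the 32, against 61.3% in open promoters, and the ratio of observed to expected CpG was 0.88, against 0.76.

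The same letters were counted in 200 bases around the summit in replicate 1, which covers all 39 genes. E2F letters were in 18 of 39, or 46.2%, against 13.6% of 14121 open promoters, and CCAAT in 24, or 61.5%, against 30.4%. Both windows gave a higher share in replication genes, but not at the same genes. E2F letters were in both windows at 13 genes, and near the start alone at 7, namely Cdc6, Cdt1, Lig1, Orc1, Rfc1, Rfc4 and Rpa3. Mcm2 held them near the summit alone, and Gmnn, Mcm4, Prim2 and Rfc2, which have no entry, held them near the summit. The comparison lists were read in the 300 bases at the start, where 17.2% of open promoters held E2F letters. There, E2F letters were in 17 of the 34 other replication genes with an entry. They were in 8 of 14 E2F and RB regulators, but in 3 of 19 mitotic genes. Of these mitotic genes 14 held the CHR letters TTTGAA, against 11.1% of open promoters, and 17 held CCAAT, against 38.3%.

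Genes with E2F letters had somewhat higher median ranks of promoter strength. The 20 with the letters had a median percentile of -log10 q of 74.3 and 73.3 in replicates 1 and 2, and the 12 without had 67.5 and 68.7. By signal the medians were 77.0 and 75.7 with the letters and 64.6 and 69.7 without. Over all open promoters the same split gave 58.0 and 57.9 with the letters and 50.7 and 50.6 without by -log10 q, and 54.7 and 55.3 with and 50.96 and 51.1 without by signal. Single genes went the other way. Rpa1 without the letters stood at 93.4 and 92.2, and Pola1 with the most matches at 36.4 and 36.8. The split by CCAAT was wider by both measures. The median percentile of -log10 q was 77.5 and 75.8 in the 20 genes with CCAAT and 53.1 and 55.5 in the 12 without. By signal the CCAAT medians were 86.7 and 85.9 with and 56.6 and 57.9 without. The split by ETS letters changed sides with the measure. Its medians by -log10 q were 55.4 and 55.5 with and 77.1 and 77.7 without. By signal they were 89.7 and 85.5 with and 66.4 and 63.6 without. At the 61 distal regions E2F letters were found within 100 bp of the summit in 1, or 1.64%, against 2.01% of all 47802 distal regions. The AP-1 letters were in 18, or 29.5%, against 22.6%. The distal regions of these genes thus held E2F letters about as rarely as distal regions in general.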

How the data were processed

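Accessible regions of 2 ATAC-seq libraries of 1 group were taken as the authors deposited them, 1 narrowPeak list per library on mm10, per the labels. Replicate numbers came from the labels. The aligner and region caller were not given in the sources used here, and the treatment of transposase offsets, which can shift a summit by a few bases, is not known. The deposited signal has no stated scale, the deposited score was not used, and the -log10 q (with the deposited -log10 p beside it) ranks regions within a list. The deposited lists hold no read counts, so the depth is unknown.

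The genes, roles and comparison lists were chosen with earlier results of these data known. Start sites came from GENCODE M21 and chromosomes 1 to 19, X and Y were used. A promoter was open where a region shared at least 1 bp with the 1 kb flanks of any start site. Distal regions overlapped the gene body or its 10 kb flanks, and replicated ones were regions of replicate 1 overlapped in replicate 2. Length classes were 10 classes of locus length. Every gene is named, and in each role the genes with the highest and lowest mean percentile of -log10 q are given in full. Promoter sequences came from RefSeq on GRCm38.p6 and summit windows from that genome. No test was made, since there was 1 group and the genes were chosen with results known. Counts stand beside the share of all genes or open promoters. The steps were checked on simulated data. Python 3.11.15, pandas 2.3.3, numpy 2.4.6, scipy 1.17.1 and pysam 0.24.0 were used.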

Additional observations from a re-analysis of the deposited data

How the results depend on the processing

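No paired analysis was possible because there was 1 group. All 39 promoters were open with the summit inside the window, within 250 bp of a start site, at the most upstream start alone, at a -log10 q of 5 or more, among the 50000 strongest entries by -log10 q and in each replicate alone. Among the 50000 strongest by signal 38 were, and Tk1 was lost. The count of distal regions was 61, and it was 36 among the 50000 strongest entries by signal, 39 by -log10 q, 34 in the gene body alone, 168 with 50 kb to either side, 55 with a reciprocal overlap of 50%, and 74 to 77 with a replicate left out. The median percentile of promoter strength among all regions of a list was 94.9 by -log10 q, 94.5 to 95.3 with a replicate left out and 92.9 by signal. Open promoters of all protein-coding genes had medians of 87.5 and 88.9 by -log10 q in replicates 1 and 2, and 81.7 and 83.2 by signal. Of the 39, 26 genes ranked lower by signal than by -log10 q and 13 higher. The share of E2F letters was 3.62 times that of open promoters, 3.40 times around the summits and 3.82 times in the same GC class. The 2 alternatives chosen after seeing the data gave 9.15 times for letters of 8 bases, with a T in front, and 11 head-to-head pairs within 250 bp in place of 13. The other replication genes were open at 40 of 40 in each replicate alone. Without read counts, depth limits every call of an absent region in a way that cannot be stated.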
